A study of Mus musculus with 12 samples.

Results

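The genes described here sit on the step between the T cell receptor and the ERK kinases at which RAS is switched on and off. They are 9 genes listed by name for their roles in this step: *Rasgrp1*, *Sos1*, *Nras*, *Rasa2*, *Dgka*, *Dgkz*, *Dusp2*, *Dusp5* and *Dusp6*. All 9 were among the 24561 genes of the count table, and all 9 passed the expression filter that left 12719 genes for testing. Messenger RNA with a poly(A) tail was sequenced from OT-II T cells, which carry a transgenic receptor for an ovalbumin peptide, of the C57BL/6 strain. The cells were labelled either CD4-Cre (WT) or CD4-CrexBcl6fl/+ (HET), so both groups carry the Cre transgene, which acts in cells that have passed through the CD4-expressing stage of T cell development, and 1 of the 2 *Bcl6* alleles is flanked by loxP sites only in HET. The donor cells had been given to CD45.1 Sap-/- recipients, in which the host's own T cells lack the adaptor SAP, and the recipients were immunized with NP-OVA and LPS in alum. On day 3, CXCR5hi PD-1hi Tfh cells were sorted from draining lymph nodes, and 2 technical repeats of about 200 cells were sequenced by SMART-Seq2 from each of 3 recipients per genotype, 12 libraries in all. How many donors supplied these cells was not given in the sources used here, so donor and genotype cannot be told apart.

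Engagement of the T cell receptor activates phospholipase C gamma, which cuts a membrane lipid into inositol trisphosphate, which releases calcium, and diacylglycerol. Diacylglycerol recruits RASGRP1, which loads RAS with GTP, and SOS proteins bound to the adaptor LAT load RAS as well, with a positive feedback from RAS-GTP. RAS-GTP starts the RAF, MEK and ERK kinase cascade, while diacylglycerol kinases remove diacylglycerol, RAS GTPase-activating proteins return RAS to its GDP form, and dual-specificity phosphatases (DUSPs) take the activating phosphates off ERK. The genes of several of these brakes are themselves induced by ERK activity, so their transcripts are often read as a record of recent signaling.

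Libraries held between 3343375 and 8315722 counts in HET and between 5240715 and 7266106 in WT. The *Bcl6* transcript, counted over the whole gene so that a deleted allele is not separated from an intact one, was higher in the mice labelled HET (149 ± 2.18 normalized CPM, SD, n = 3, against 62.4 ± 11.5, SD, n = 3, adjusted p = 6.3e-07 in edgeR's quasi-likelihood test, QL, by the Benjamini-Hochberg method, BH). HET cells carry the allele that can be deleted, and its loss alone would not raise the count. A count over the whole gene cannot show whether that allele was deleted. Whether the labels were exchanged, or a deleted allele was still transcribed, was not tested. With exchanged labels every direction below would turn. The libraries are called by their labels throughout. Summed CPM of 10 T and Tfh markers ranged from 3274 to 3957 in the HET libraries and from 3772 to 4553 in the WT libraries, with 1 of these markers higher and 4 lower in HET at an adjusted p under 0.05. These are 10% and 40%, where 9.17% and 8.82% of all genes tested were higher and lower. Of the 10 markers, 8 had a negative log2 fold change, with a median of -0.21. Summed CPM of 10 B cell markers ranged from 8.18 to 219 in HET and from 10.8 to 127 in WT, and 2 libraries, HET mouse 2 repeat 2 and WT mouse 3 repeat 2, exceeded 100. Of the 6 B cell markers tested, 0 were called by edgeR, and all 6 had a positive log2 fold change (0.10 to 0.99, median 0.49, against 0.01 over all genes tested). Summed CPM of the myeloid markers ranged from 96.4 to 118 in HET and from 71.5 to 103 in WT, with 1 of 4 tested higher in HET. Of 3 CD8 and NK markers tested, *Nkg7* was higher in HET (log2 fold change 1.54), with at most 9.76 CPM in a HET library and 3.86 in a WT library. *Cd8b1* ranged from 18.2 to 32.3 CPM in HET and from 25.2 to 49.98 in WT, and *Cd8a* was at 0 in every HET library and at most at 0.351 in WT. The part of these markers in the results was not tested, except where values without the 2 libraries are given.

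Of the 9 genes, *Sos1* was the one that passed the test. Its level in the mice labelled HET was 2.13 times that in the mice labelled WT. The other 8, among them the diacylglycerol sensor *Rasgrp1*, both diacylglycerol kinases, *Nras*, *Rasa2* and all 3 phosphatases, did not pass, with log2 fold changes between -0.55 and 0.33. Counts of the 2 repeats of a mouse were summed, scaled by TMM to normalized CPM (CPM, counts scaled to a common library size) and compared between the 6 mice by edgeR's quasi-likelihood test, with an adjusted p under 0.05 as the threshold. One of the 9 genes was higher in HET, where 9.17% of the 12719 genes tested were, and 0 were lower, where 8.82% were. Over both directions, 18.0% of the genes tested were called. At an unadjusted p under 0.05, 3 of the 9 were higher in HET and 0 were lower, and DESeq2 and limma voom each called 1 higher and 0 lower. The median log2 fold change of the 9 was 0.14 against 0.01 over all genes tested. The 3 mice of one label lay wholly on one side of the other 3 for 3 of the 9 genes, *Sos1*, *Rasa2* and *Dusp5*, where this held for 34.4% of all genes tested.

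**Figure D1:**
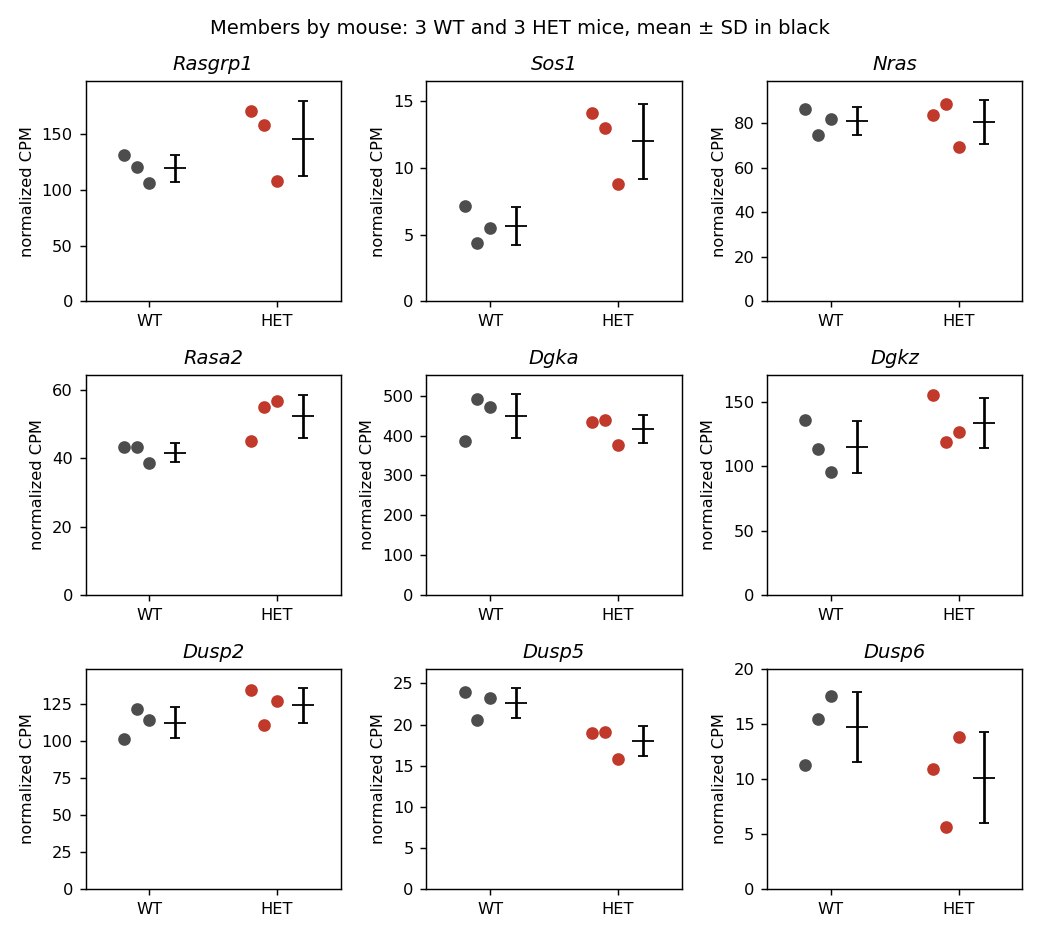
Normalized CPM of the 9 genes on an axis from 0, each point 1 mouse labelled WT (grey) or HET (red), with the mean ± SD of 3 mice in black. The groups are apart for *Sos1* and *Rasa2*, higher in HET, and for *Dusp5*, lower in HET, and overlap for the other 6 genes.

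Levels can be set side by side between genes only per length, as normalized CPM per kb of exon. On that scale *Dgka* was highest (87.4 in HET and 94.4 in WT), followed by *Dusp2* (62.0 and 56.1). *Rasgrp1* (26.0 and 21.3) and *Dgkz* (21.3 and 18.3) came next with mice that overlapped, and *Nras* (15.1 and 15.2) overlapped with *Dgkz* as well. *Dusp5* stood at 7.28 and 9.13, and the mice of *Dusp6* (3.22 and 4.71) and *Rasa2* (3.29 and 2.62) overlapped. *Sos1* was lowest at 1.13 in HET and 0.534 in WT. The kinase that consumes diacylglycerol, *Dgka*, thus had far more transcript per length than either exchange factor in these Tfh cells, whatever the label. SMART-Seq2 with poly(A) priming need not cover long transcripts evenly, and *Sos1* and *Rasa2* have the longest exon sequence of the 9, 10594 and 15856 bases.

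**Figure D2:**
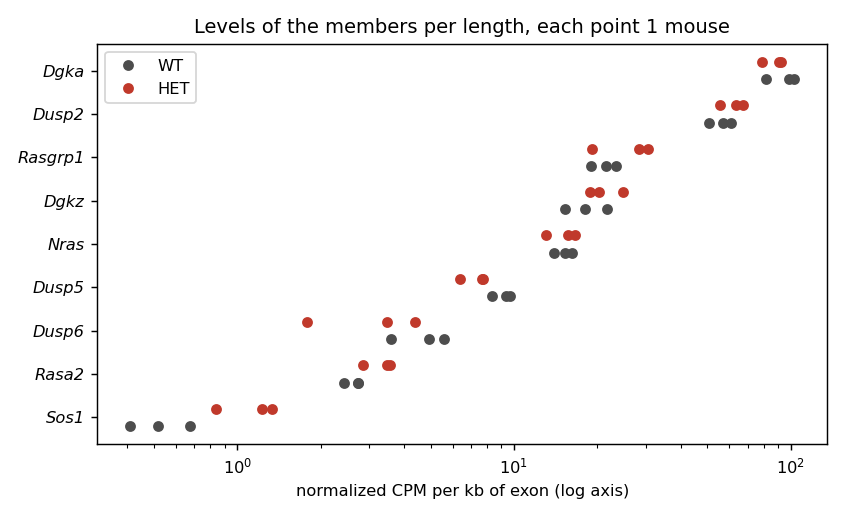
Level of each gene per length, as normalized CPM per kb of exon on a log axis, each point 1 mouse labelled WT (grey) or HET (red). The genes spread from *Sos1*, with group means of 0.534 and 1.13, to *Dgka*, with group means of 94.4 and 87.4.

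*Sos1* encodes a guanine nucleotide exchange factor that reaches RAS at the membrane through the adaptor GRB2. It lies on chromosome 17 of GRCm38 from 80393751 to 80480453 on the minus strand. The 3 mice labelled HET had 14.1, 13.0 and 8.84 normalized CPM of *Sos1*, and the 3 labelled WT had 7.14, 4.36 and 5.48. Every HET mouse was above every WT mouse, with a gap between 7.14 and 8.84. The means were 11.998 ± 2.79 (SD, n = 3) and 5.66 ± 1.40 (SD, n = 3), a log2 fold change of 1.09 (standard error 0.29, 95% interval 0.50 to 1.68, edgeR QL, BH-adjusted p = 0.0103). The two-sided exact permutation test on the 6 mice gave p = 0.1, the smallest that 3 mice against 3 allow. Between 23 and 137 reads of *Sos1* were counted per library. The 2 repeats of a mouse differed at most by 0.71 on the log2 scale, which measures the technical spread and not that among mice.

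In bulk libraries a larger share of cells with the transcript and more transcript per cell cannot be told apart. With the 2 libraries of most B cell markers left out, an alternative chosen after seeing the data, the log2 fold change of *Sos1* was 1.14 (edgeR QL, BH-adjusted p = 0.0247). It was positive in all 22 alternatives and called in 16. The call was lost with technical repeat 1 alone (0.98, edgeR QL, BH-adjusted p = 0.149) or repeat 2 alone (1.07, edgeR QL, BH-adjusted p = 0.0737), without HET mouse 1 (0.95, edgeR QL, BH-adjusted p = 0.0571) or WT mouse 2 (0.92, edgeR QL, BH-adjusted p = 0.0552), and in both fits on TPM, where limma gave 0.21 on the log2(TPM + 1) scale (adjusted p = 0.118) and 0.67 on the log2(TPM + 0.1) scale (adjusted p = 0.129). A pseudocount shrinks the change of a low gene, but the median of all genes also moved on these scales, to -0.07 and -0.11. Why *Sos1* had lower values there was not tested. Over all 22 alternatives the adjusted p in edgeR, DESeq2 or limma ranged from 0.00358 to 0.149.

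The promoter of *Sos1* is shown because *Sos1* was the gene that passed the test. In the 250 bases before its RefSeq start site (chr17:80480454-80480703, minus strand of GRCm38.p6, written 5′ to 3′), and in the 50 bases after it, none of the 7 motifs searched was found, so no base is in capitals.
Sos1: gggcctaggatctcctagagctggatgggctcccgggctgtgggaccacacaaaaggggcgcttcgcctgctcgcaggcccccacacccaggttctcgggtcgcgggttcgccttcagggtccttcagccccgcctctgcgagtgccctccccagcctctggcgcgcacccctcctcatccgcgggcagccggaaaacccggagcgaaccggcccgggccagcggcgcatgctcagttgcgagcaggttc
The motifs were, on both strands, TTCCTNGAA (a BCL6 core), TGANTCA (AP-1), TGACGTCA (the cyclic AMP response element), GCGTGGGCG (EGR), CCGGAAG (ETS), the CArG box bound by SRF and CAGGTG (an E box), of which the CArG box and the E box were found in promoters of the 9 genes. A match describes the letters of the window and is not a bound site, and the absence of one says only that these letters are not in it.

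*Rasgrp1* encodes the exchange factor that binds diacylglycerol and is the main starter of RAS signaling in T cells. It lies on chromosome 2 from 117279993 to 117343001 on the minus strand. The mice labelled HET had 171, 159 and 108 normalized CPM of *Rasgrp1*, and those labelled WT 131, 121 and 107. HET mice 1 and 2 were above every WT mouse, and HET mouse 3 lay among the WT mice. The means were 146 ± 33.7 (SD, n = 3) and 119 ± 12.3 (SD, n = 3), a log2 fold change of 0.29 (standard error 0.13, 95% interval 0.01 to 0.57) that did not pass (edgeR QL, BH-adjusted p = 0.142). The value turned on single mice: without HET mouse 3 the log2 fold change was 0.46 and the BH-adjusted p from edgeR's QL test was 0.00908, in a range of 0.00908 to 0.722 over all 22 alternatives. Without HET mouse 1 it was 0.16, and with technical repeat 1 alone it was 0.12.

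*Nras*, which encodes one of the 3 classical RAS GTPases, lies on chromosome 3 from 103058285 to 103067914 on the plus strand. *Nras* stood at 83.4, 88.7 and 69.4 normalized CPM in the mice labelled HET and at 86.4, 74.4 and 81.8 in those labelled WT. The groups overlapped, with HET mouse 3 lowest of the 6. Its log2 fold change was -0.01 (standard error 0.12, edgeR QL, BH-adjusted p = 0.983), it took the other sign in 6 of 22 alternatives, upper-quartile scaling among them (0.03), and its 95% interval, -0.25 to 0.24, does not reach the size of the *Sos1* difference. Its relative *Hras* had a log2 fold change of 0.04 (edgeR QL, BH-adjusted p = 0.911).

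*Rasa2* encodes a GTPase-activating protein that returns RAS to its GDP form. It lies on chromosome 9 from 96539300 to 96631617 on the minus strand. Values of *Rasa2* were 45.1, 54.9 and 56.7 normalized CPM in HET mice 1 to 3 and 43.1, 43.3 and 38.4 in WT mice 1 to 3. Every HET mouse was above every WT mouse (two-sided exact permutation p = 0.1, the smallest possible), though HET mouse 1 lay close to the WT mice. The log2 fold change of 0.33 (standard error 0.14, 95% interval 0.04 to 0.61) had a BH-adjusted p of 0.105 in edgeR's QL test. With trends over GC content and length removed it was 0.12. It was positive in all 22 alternatives and called in 0, with adjusted p between 0.0642 and 0.642 over those fits in edgeR, DESeq2 or limma.

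The diacylglycerol kinases turn diacylglycerol into phosphatidic acid and so limit RASGRP1. *Dgka* lies on chromosome 10 from 128720134 to 128744855 on the minus strand. The mice labelled HET had 434, 439 and 376 normalized CPM of *Dgka*, and those labelled WT 387, 491 and 471. The groups overlapped, with WT mouse 1 among the HET mice. Its log2 fold change was -0.11 (standard error 0.10, 95% interval -0.32 to 0.10, edgeR QL, BH-adjusted p = 0.497). *Dgka* shares 105 exon bases with *Pmel* on the opposite strand. Reads from the 2 strands cannot be told apart where the strand was not kept, but *Pmel* had 2226 counts over all libraries against 30660 for *Dgka*.

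*Dgkz* encodes the zeta kinase, which with *Dgka* makes up most of the diacylglycerol kinase activity of T cells, and lies on chromosome 2 from 91932824 to 91975864 on the minus strand. *Dgkz* stood at 155, 118 and 127 normalized CPM in the mice labelled HET and at 136, 114 and 95.7 in those labelled WT. The groups overlapped, and HET mouse 1 was highest and WT mouse 3 lowest. The log2 fold change of 0.22 (standard error 0.13, 95% interval -0.04 to 0.48) had a BH-adjusted p of 0.254 in edgeR's QL test. With trends over GC content and length removed from each mouse, the log2 fold change was 0.38 and the BH-adjusted p from edgeR's QL test was 0.0286, in a range of 0.00653 to 0.736 over all 22 alternatives, so the call of *Dgkz* depends on that choice. Without HET mouse 1 or without WT mouse 3, the log2 fold change was 0.09. *Dgkz* shares 222 exon bases with *Gm9821* on the opposite strand, which had 183 counts against 8754. Of the other kinases tested, *Dgkd* (-0.14), *Dgkq* (-0.20), *Dgke* (-0.56) and *Dgkh* (0.67) did not pass either. Thus 0 of 6 diacylglycerol kinases were called, where 18.0% of all genes tested were, and 6 genes are too few to set the family apart from that share.

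The E box was found in 1 promoter of *Rasgrp1* and in 1 of *Dgkz*, the diacylglycerol sensor and a kinase that opposes it, and is shown for that pair in capitals within 30 bases (chr2:117342918-117342947 and chr2:91963593-91963622, both minus strand of GRCm38.p6 and before the RefSeq start site, the second matching on the other strand). Both lie inside the first exon of another GENCODE transcript of the gene.
Rasgrp1: atcaacgcctgtCAGGTGgttggtgcgaga
Dgkz: ctgcttccccggCACCTGggagtggggcgc
The E box is common, in 20.2% of 32851 RefSeq promoters of the same length, and was in 2 of the 13 promoters (15.4%) that the table lists for the 9 genes.

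**Figure D3:**
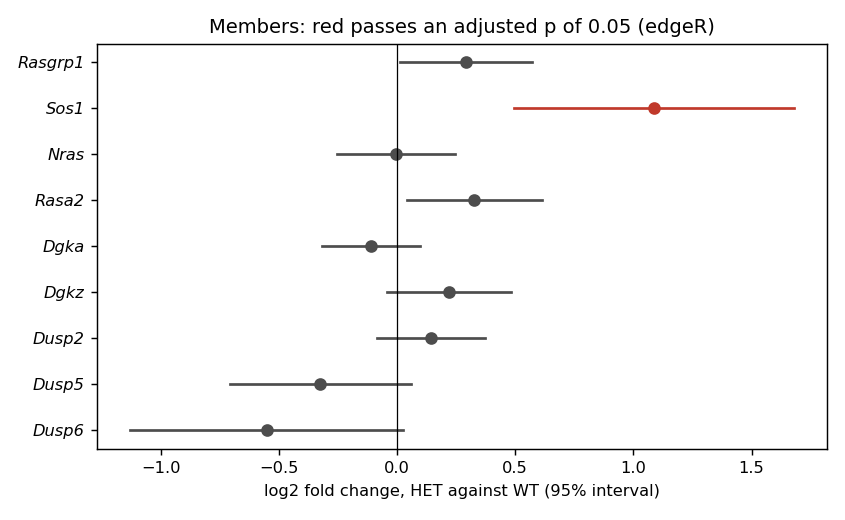
Log2 fold change of each gene, HET against WT, with its 95% interval from edgeR, in red where the adjusted p is under 0.05. *Sos1* at 1.09 stands above 0 and the other 8 lie between -0.55 and 0.33, of which *Nras* (upper-quartile scaling) and *Dusp2* (TPM) change sign with another scaling.

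Of the 3 phosphatases, *Dusp5* and *Dusp6* had negative and *Dusp2* a positive log2 fold change. None passed (0 of 3), where 18.0% of all genes tested did. *Dusp6* encodes a cytoplasmic phosphatase selective for ERK, whose transcript is induced by ERK, and lies on chromosome 10 from 99263231 to 99267489 on the plus strand. Values of *Dusp6* were 10.9, 5.60 and 13.8 normalized CPM in HET mice 1 to 3 and 11.3, 15.5 and 17.5 in WT mice 1 to 3. The groups overlapped, and HET mouse 2 was lowest by far. The log2 fold change was -0.55 (standard error 0.28, 95% interval -1.13 to 0.03, edgeR QL, BH-adjusted p = 0.184). Between 19 and 171 reads of *Dusp6* were counted per library. The 2 repeats of HET mouse 2 had 2.75 and 9.91 normalized CPM, 1.68 apart on the log2 scale. Without HET mouse 2 the log2 fold change was -0.26, and over the 6 fits that left out 1 mouse it ranged from -0.83 to -0.26 with 0 calls.

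*Dusp5* encodes a nuclear phosphatase that holds and inactivates ERK and lies on chromosome 19 from 53529109 to 53542431 on the plus strand. The mice labelled HET had 19.0, 19.2 and 15.8 normalized CPM of *Dusp5*, and those labelled WT 24.0, 20.5 and 23.2. Every HET mouse was below every WT mouse (two-sided exact permutation p = 0.1, the smallest possible), with HET mouse 2 and WT mouse 2 close together. The log2 fold change was -0.33 (standard error 0.19, 95% interval -0.71 to 0.06, edgeR QL, BH-adjusted p = 0.247). It was negative in all 22 alternatives and called in 0, but its size varied, from -0.05 with technical repeat 2 alone to -0.56 with repeat 1 alone or without the 2 libraries of most B cell markers, and it was -0.19 with trends over GC content and length removed. Single libraries did overlap, from 13.7 to 24.7 in HET and from 16.3 to 32.7 in WT. *Dusp5* shares 547 exon bases with an antisense transcript, AC137853.2, that was not analysed here.

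*Dusp5* was the one gene of the 9 whose promoter held a CArG box, the site of SRF, through which ERK and its ELK partners are known to act on early genes. There were 2 boxes, side by side and not overlapping, starting 82 and 72 bases before the RefSeq start site. They are in capitals in the stretch that ends where the annotated transcript begins (chr19:53528895-53529108, plus strand of GRCm38.p6).
Dusp5: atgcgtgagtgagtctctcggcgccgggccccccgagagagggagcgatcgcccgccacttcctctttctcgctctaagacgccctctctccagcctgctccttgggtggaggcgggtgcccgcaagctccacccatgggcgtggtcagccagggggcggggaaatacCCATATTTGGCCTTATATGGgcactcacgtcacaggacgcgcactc
A CArG box was found in 1.63% of the 32851 promoters. The BCL6 core was in 1.59%, AP-1 in 7.81%, the cyclic AMP response element in 1.79%, EGR in 0.612% and ETS in 8.86%, and 0 of the 9 genes held any of these 5.

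*Dusp2* encodes a nuclear phosphatase of activated lymphocytes and lies on chromosome 2 from 127336159 to 127338376 on the plus strand. *Dusp2* stood at 135, 111 and 127 normalized CPM in the mice labelled HET and at 101, 122 and 114 in those labelled WT. The groups overlapped. The log2 fold change was 0.14 (standard error 0.11, 95% interval -0.09 to 0.37, edgeR QL, BH-adjusted p = 0.412), and it took the other sign in both fits on TPM (-0.03).

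The summed value of *Dusp2* hides a difference between the technical repeats. In the first repeats, HET mice had 126, 104 and 91.1 normalized CPM and WT mice 113, 149 and 140. In the second repeats, HET mice had 140, 121 and 144 and WT mice 90.6, 100 and 95.5. The second repeat was thus the higher in each HET mouse and the lower in each WT mouse. Repeat 1 alone gave a log2 fold change of -0.32 (edgeR QL, BH-adjusted p = 0.230) and repeat 2 alone one of 0.51 (edgeR QL, BH-adjusted p = 0.0120). What the repeats differ in is not given in the sources used here. Of all genes tested, 544 (4.28%) had repeats that moved in opposite directions in the 2 labels in this way.

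**Figure D4:**
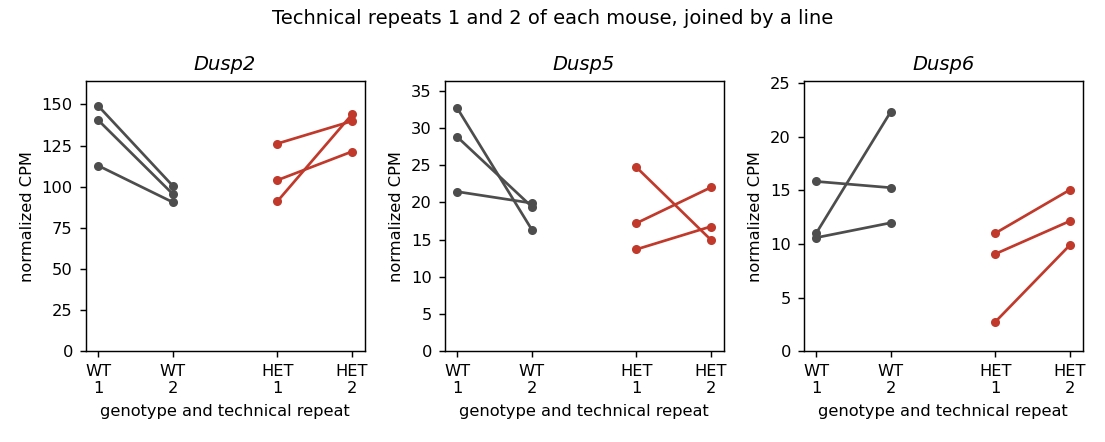
Normalized CPM of the 3 phosphatases in technical repeats 1 and 2 of each mouse, labelled WT (grey) or HET (red), with a line joining the repeats of 1 mouse. For *Dusp2* all 3 WT lines fall and all 3 HET lines rise, while *Dusp5* has lines in both directions in HET and *Dusp6* in WT.

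The rest of the pathway was read from 93 other genes in lists by family, of which 88 were in the table and 69 were tested. At an adjusted p under 0.05, 6 were higher and 10 lower in the mice labelled HET, with a median log2 fold change of -0.09. These are 8.7% and 14.5% of the 69, where 9.17% and 8.82% of all genes tested were higher and lower, so the share higher is near that over all genes. The 6 higher genes became 2 without HET mouse 1 or with technical repeat 2 alone, and 3 without WT mouse 2. The lower genes were mostly in the list for phospholipase C and at the kinases below RAF. That list also holds genes such as *Shc1*, *Gab2* and *Prkcq*, so it is wider than the complex that activates phospholipase C. Of 13 genes tested in the phospholipase C list, 5 (38.5%) were lower and 0 higher: *Plcg1*, the phospholipase itself (88.6 ± 13.9 against 132 ± 9.44 normalized CPM, SD, n = 3 each, log2 fold change -0.57, standard error 0.12, edgeR QL, BH-adjusted p = 0.00149), and the adaptors *Shc1* (-0.76), *Grap* (-0.55), *Lcp2*, which encodes SLP-76 (-0.34), and *Lat* (-0.31). Their BH-adjusted p from edgeR's QL test was 0.000396 for *Shc1*, 0.0013 for *Grap*, 0.0237 for *Lcp2* and 0.0240 for *Lat*. Over the 13, 11 log2 fold changes were negative and 2 positive. The higher of these 2 was *Grap2* (0.39, edgeR QL, BH-adjusted p = 0.0548), with groups that overlapped. *Plcg1*, *Shc1* and *Grap* were called in all 22 alternatives. *Lat* lost its call with trends over GC content and length removed and without the 2 libraries of most B cell markers, and *Lcp2* lost it without those libraries. *Plcg1* shares 379 exon bases with *Zhx3* on the opposite strand, which had 1272 counts against 7844 for *Plcg1*.

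Among the genes of RAF, MEK, ERK and their scaffolds, calls went in both directions. *Mapk3*, which encodes ERK1, was higher, with 31.2 ± 6.96 normalized CPM (SD, n = 3) in HET and 19.2 ± 2.14 (SD, n = 3) in WT, a log2 fold change of 0.71 (standard error 0.19, edgeR QL, BH-adjusted p = 0.0118). The groups did not overlap. Both MEK genes were lower, *Map2k1* with a log2 fold change of -0.61 (edgeR QL, BH-adjusted p = 0.022) and *Map2k2* of -0.42 (edgeR QL, BH-adjusted p = 0.00559). The scaffold *Ksr1*, which holds RAF, MEK and ERK together, was higher, with 38.9 ± 3.26 against 22.4 ± 3.72 normalized CPM (SD, n = 3 each, log2 fold change 0.80, edgeR QL, BH-adjusted p = 0.00183).

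Among 6 exchange factors tested, *Sos1* was the one called. Its paralog *Sos2* had 5.09 ± 1.39 normalized CPM (SD, n = 3) in HET and 5.74 ± 1.87 (SD, n = 3) in WT, and *Rasgrp2* had a log2 fold change of 0.08. Of 7 RAS-family GTPases, the RAP genes were called in opposite directions, *Rap1a* lower (-0.45, edgeR QL, BH-adjusted p = 0.00282) and *Rap1b* higher (0.32, edgeR QL, BH-adjusted p = 0.0204). RAP1 proteins act on integrin adhesion and bind RAF. Of 7 GTPase-activating proteins, 8 MAP kinase phosphatases and 3 Sprouty and Spred genes tested, 0 were called, where 18.0% of all genes tested were. Each of these lists is too short to be set apart from that share. The phosphatase list had a median log2 fold change of -0.34 against 0.01 over all genes, and its members outside the 9 included *Dusp4* (-0.69, edgeR QL, BH-adjusted p = 0.0808), *Dusp10* (-0.29), *Dusp1* (-0.36), *Dusp16* (-0.71) and *Dusp7* (0.09). Of the 7 GTPase-activating proteins, 6 had a positive log2 fold change, with a median of 0.26. *Rasal1* came nearest to the threshold, at 10.2, 8.31 and 10.4 normalized CPM in HET against 5.68, 3.73 and 6.68 in WT (log2 fold change 0.84, standard error 0.30, edgeR QL, BH-adjusted p = 0.0550), with every HET mouse above every WT mouse. The others besides *Rasa2* included *Rasa1* (0.46), *Rasal3* (-0.24) and *Rasa3* (0.01).

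Of 15 tested genes that ERK activity induces or that carry its signal to transcription, 3 were higher and 1 lower. *Egr2*, an early growth response factor induced through the T cell receptor, was lower, at 6.64 ± 2.66 against 14.4 ± 4.59 normalized CPM (SD, n = 3 each, log2 fold change -1.12, edgeR QL, BH-adjusted p = 0.0123). *Srf* (0.75, edgeR QL, BH-adjusted p = 0.0121) and *Elk4* (0.60, edgeR QL, BH-adjusted p = 0.00255), which encode the factor that binds the CArG box and one of its partners, were higher, as was the activation marker *Cd69* (0.60, edgeR QL, BH-adjusted p = 0.0216). The other 11 did not pass. Among them, the early genes *Egr1* (-0.28), *Egr3* (-0.48), *Fos* (-0.77), *Junb* (-0.29) and *Nr4a1* (-0.68) had negative log2 fold changes and *Myc* (0.16) and *Ier2* (0.01) positive ones. The ELK partners of SRF did not move together. *Elk1*, at 2.38 normalized CPM in HET and 5.21 in WT, had -1.11 (edgeR QL, BH-adjusted p = 0.0825), with every HET mouse below every WT mouse. *Elk3* had 0.43, with groups that overlapped. Of the 15, 9 were negative, with a median of -0.19 against 0.01 over all genes tested, of which 9.17% were called higher and 8.82% lower. All 16 called genes kept their sign in the 22 alternatives, with calls in 13 to 22 of them. *Plcg1*, *Shc1*, *Grap*, *Map2k2*, *Ksr1*, *Rap1a* and *Elk4* were among the 8 called whichever mouse was left out, and the other 8 were called in 3 or 4 of the 6 such fits. *Map2k2*, *Cd69*, *Lat* and *Rap1b* lost their calls with trends over GC content and length removed. *Mapk3* lost its call without HET mouse 1 or WT mouse 2, the same mice that decided the call of *Sos1*, and *Egr2* lost it without HET mouse 2, without WT mouse 2 or without the 2 libraries of most B cell markers, where 12 pathway genes were called. In both fits on TPM, 8 pathway genes were called, and 0 of them were higher in HET.

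**Figure D5:**
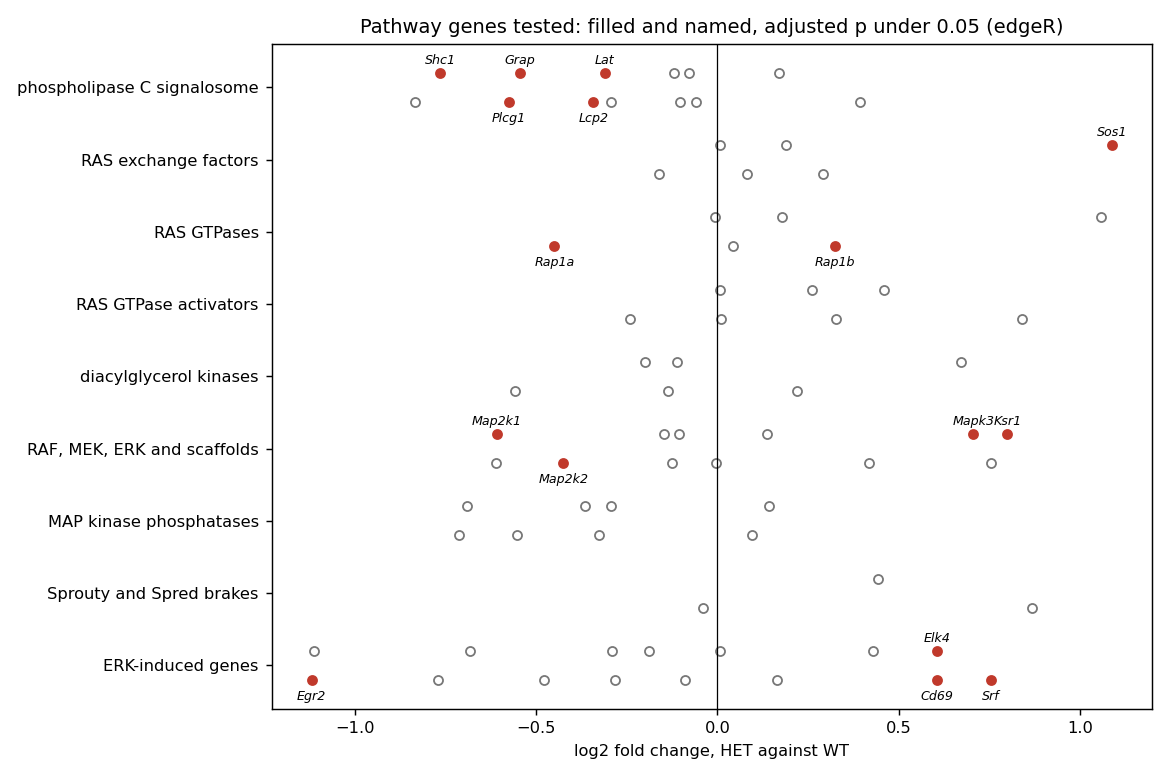
Log2 fold change, HET against WT, of the tested genes in 9 lists of the pathway other than 2 not reported here, the 9 genes described above included, each point 1 gene, filled and named where edgeR's adjusted p is under 0.05. The named genes of the phospholipase C list all lie below 0, and the RAF, MEK and ERK list has named genes on both sides.

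The genes most like *Sos1* over the 12 libraries, by Pearson's correlation of log2 CPM, were *Gm17139* (0.909), *Pip4k2b* (0.901), *Mapk3* (0.898), *Ubxn11* (0.890) and *Avpr2* (0.886). The libraries share genotype labels, mice and depth, and with each label's mean removed the values fell to between 0.641 and 0.744. *Mapk3*, the ERK1 gene, is the one pathway gene among these 5.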

How the data were processed

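The authors checked reads with FastQC, aligned them to GRCm38 (mm10) with HISAT2 2.2.1 and counted them per gene with HTSeq. They deposited raw counts per gene and TPM values made by the authors from them. The annotation release, the strand setting and the basis of the TPM lengths are not given in the sources used here. The 9 genes and the lists of pathway and marker genes were chosen with earlier results of these data known.

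Counts were summed over the 2 repeats of a mouse. The 3 HET and 3 WT mice were tested in R 4.3.3 by edgeR 4.0.16 (TMM, filterByExpr, quasi-likelihood test, Benjamini-Hochberg adjustment over 12719 genes). Standard errors came from the log2 fold change and its F statistic. P-values measure the spread among these recipients. Without molecular identifiers, reads are not independent molecules and counting error alone understates the error. All 9 genes are given with every mouse's value, and pathway genes by value where the adjusted p is under 0.05, besides *Plcg1*, *Bcl6* and paralogs. Values of 2 pathway genes, which are in the counts, are not reported here. For the gene of smallest p, the 5 best correlated genes are named.

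Alternatives were DESeq2 1.42.0, limma 3.58.1 (voom, and TPM with pseudocounts of 1 and 0.1), the 12 libraries as independent samples, each repeat alone, other scalings and filters, leaving out each mouse, a block on the replicate number, fits without trends over GC content and length (mgcv 1.9.3, 99.0% of tested genes), and, chosen after seeing the data, leaving out the 2 libraries with over 100 CPM of B cell markers. The edgeR test with and without the replicate block, DESeq2 and the removal of trends, on a simulated length trend, were tried on simulated data. The limma fits, the other alternatives and the permutation test were not. Loci came from GENCODE and promoters, from 250 bases before to 50 after each start, from RefSeq on GRCm38.p6. All 9 genes had a promoter there.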

Additional observations from a re-analysis of the deposited data

Results flagged for a closer look

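*Nras* in the second repeat of HET mouse 3, at 60.2 normalized CPM, lay far from the other 5 HET libraries, whose median was 84.2. The gap to the nearest library was 0.637 of the range. Of the 18 groups of 6 libraries examined in this way, 0.9 would be expected to stand out by chance. The first repeat of the same mouse had 85.4.

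*Dusp2* moved in opposite directions between the technical repeats of the 2 labels. The log2 ratio of repeat 1 to repeat 2 was negative in all 3 HET mice and positive in all 3 WT mice, with means that differed by -0.82 (HET minus WT), and this difference was not tested.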

How the results depend on the processing

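The number of genes called by edgeR or limma was 1059 with repeat 1 alone, 1446 with repeat 2 alone, 1305 with log2(TPM + 1), 1260 with log2(TPM + 0.1), 1342 without the 2 libraries of high B cell markers and 1424 to 1972 when 1 mouse was left out, lowest without WT mouse 3. The log2(TPM + 0.1) scale moved the median of all genes to -0.11. Of the 9 genes, 0 were called with repeat 1 alone and with either TPM scale, 2 with GC and length trends removed, with or without the replicate block, and 0 to 2 when 1 mouse was left out. Of the other pathway genes, 8 were called with repeat 2 alone and with either TPM scale, and 10 to 17 when 1 mouse was left out, lowest without HET mouse 1. *Nras* reversed with voom (0.0001985), the 12 libraries (0.006329), repeat 1 (0.16), upper-quartile scaling (0.0275) and when 1 mouse was left out (range -0.08133 to 0.08554, positive without HET mouse 3 or WT mouse 1), and *Dusp2* with repeat 1 (-0.32) and with log2(TPM + 1) (-0.03116) and log2(TPM + 0.1) (-0.03128). The cause was not tested. With the replicate block, 2579 genes, 1 of the 9 and 21 other pathway genes were called. Same-numbered mice had correlations of deviations of 0.085, -0.028 and 0.025, so the numbers are not taken as pairs. *Sos1*, *Dusp5* and *Dusp6* had the fewest reads of the 9 genes, at most 184 per library.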
